A study of Mus musculus with 12 samples.

Results

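The 9 genes described here encode enzymes of the tricarboxylic acid (TCA) cycle. They are Cs, Idh2, Idh3a, Ogdh, Dlst, Suclg1, Suclg2, Fh1 and Mdh2, and they were taken by name from 55487 gene identifiers in 1 table of RNA-seq read counts from mouse kidney cortex. All 9 were found, and all 9 passed the filter on low counts in every comparison. The study asked what loss of augmenter of liver regeneration (ALR, encoded by Gfer) in the proximal tubule does to the kidney after ischemia-reperfusion (I/R). There were 4 groups of 3 libraries: Ctrl, labelled WT and sham, PT-KO, labelled ALR knockdown and sham, Ctrl+I/R and PT-KO+I/R. I/R was 22 min of renal ischemia on both sides followed by 24 h of reperfusion. By the study's methods, the mice were 6 to 8 weeks old on a mixed C57BL/6 background, controls carried the floxed Gfer alleles without Cre, and PT-KO mice carried floxed Gfer with Cre under the Ggt1 promoter, which is active in proximal tubule cells. Cells outside the proximal tubule therefore keep the gene, and the counts come from whole cortex.

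The TCA cycle runs in the mitochondrial matrix. It oxidizes acetyl-CoA to carbon dioxide and passes the electrons to the respiratory chain as NADH and reduced flavin. The proximal tubule relies on it, since these cells reabsorb most of the filtrate and burn fatty acids and other fuels in their mitochondria rather than glucose. Citrate synthase (Cs) opens the cycle. Idh3a is the catalytic subunit of the NAD-dependent isocitrate dehydrogenase, and Idh2 is the NADP-dependent enzyme of the same compartment. Ogdh and Dlst are subunits of the alpha-ketoglutarate dehydrogenase complex. Suclg1 is the shared subunit of succinyl-CoA ligase, and Suclg2 is its GTP-specific partner. Fh1 is fumarase, which turns fumarate into malate, and Mdh2 closes the cycle by oxidizing malate to oxaloacetate.

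Before the results, 3 facts about the libraries bear on them. Gfer, the targeted gene, was not lower in the libraries labelled PT-KO: its level was 12.8 ± 1.52 CPM (counts scaled to library size; SD, n = 3) for Ctrl, 14.0 ± 3.68 for PT-KO, 17.6 ± 2.34 for Ctrl+I/R and, highest, 22.0 ± 0.674 for PT-KO+I/R. These counts are for Gfer as a whole gene, whereas the LoxP sites flank exon 2 alone. No counts of single exons were analysed, so the gene total leaves the label unchecked. The study itself reports lower ALR expression in kidneys of PT-KO mice than in those of controls. PT-KO below means the libraries labelled so. Of the 12 libraries, Ctrl 1 and Ctrl 2 were female by Xist (22402 and 19755 counts) with 0 counts of Y-linked genes, and the other 10 were male, so every comparison with Ctrl also compares sexes in part. The 3 Ctrl+I/R libraries were uneven: the summed level of 9 proximal tubule markers was 7126 CPM in library 1, 4350 in library 2 and 9908 in library 4. That sum was 14265 to 15195 CPM in Ctrl, 13721 to 15548 in PT-KO and 2672 to 3347 in PT-KO+I/R. Library totals ran from 12165089 to 23123693 counts.

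In mm10, with gene models of GENCODE M21, the genes lie at chr10:128337734-128362479 (Cs), chr7:80094846-80115392 (Idh2), chr9:54586334-54604661 (Idh3a), chr11:6291633-6356642 (Ogdh), chr12:85110833-85134845 (Dlst), chr6:73248382-73276911 (Suclg1), chr6:95473009-95718800 (Suclg2), chr1:175600374-175625635 (Fh1) and chr5:135778480-135790398 (Mdh2). Their annotated exons share no base with another annotated gene on either strand.

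In kidneys without I/R all 9 mRNAs were well detected. Scaled to the length of all annotated exons, Idh2 led in Ctrl at 174 ± 11.5 CPM per kb (SD, n = 3). Ogdh (119 ± 9.33), Mdh2 (108 ± 7.11) and Suclg2 (108 ± 10.3) followed, and the ranges of neighbours among these 3 overlapped. Suclg1 stood at 68.7 ± 4.18, Fh1 at 60.5 ± 0.283, Cs at 53.0 ± 2.42, Dlst at 49.1 ± 2.57 and Idh3a at 41.5 ± 0.661 CPM per kb. Only Cs and Dlst overlapped among these lower neighbours. Exon length here joins every annotated exon, so a gene with long optional exons, such as Dlst with 9559 bases, reads lower than its transcripts do.

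The order was different in PT-KO+I/R. Fh1, at rank 6 of the members in Ctrl and in PT-KO and rank 7 in Ctrl+I/R, had the highest mean there at 83.8 ± 9.83 CPM per kb (SD, n = 3). Its range overlapped that of Mdh2 at 82.8 ± 3.92, whose range in turn overlapped that of Suclg2 at 78.1 ± 2.27. Idh2 came next at 69.5 ± 7.43, with a range that overlapped that of Suclg2. Ogdh, at rank 2 in Ctrl, stood at 50.7 ± 0.895, and Idh3a was last at 21.9 ± 2.19, as it was in Ctrl and PT-KO. In Ctrl+I/R Dlst (35.0 ± 6.33) and Idh3a (35.7 ± 8.11) came last with overlapping ranges.

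**Figure D1:**
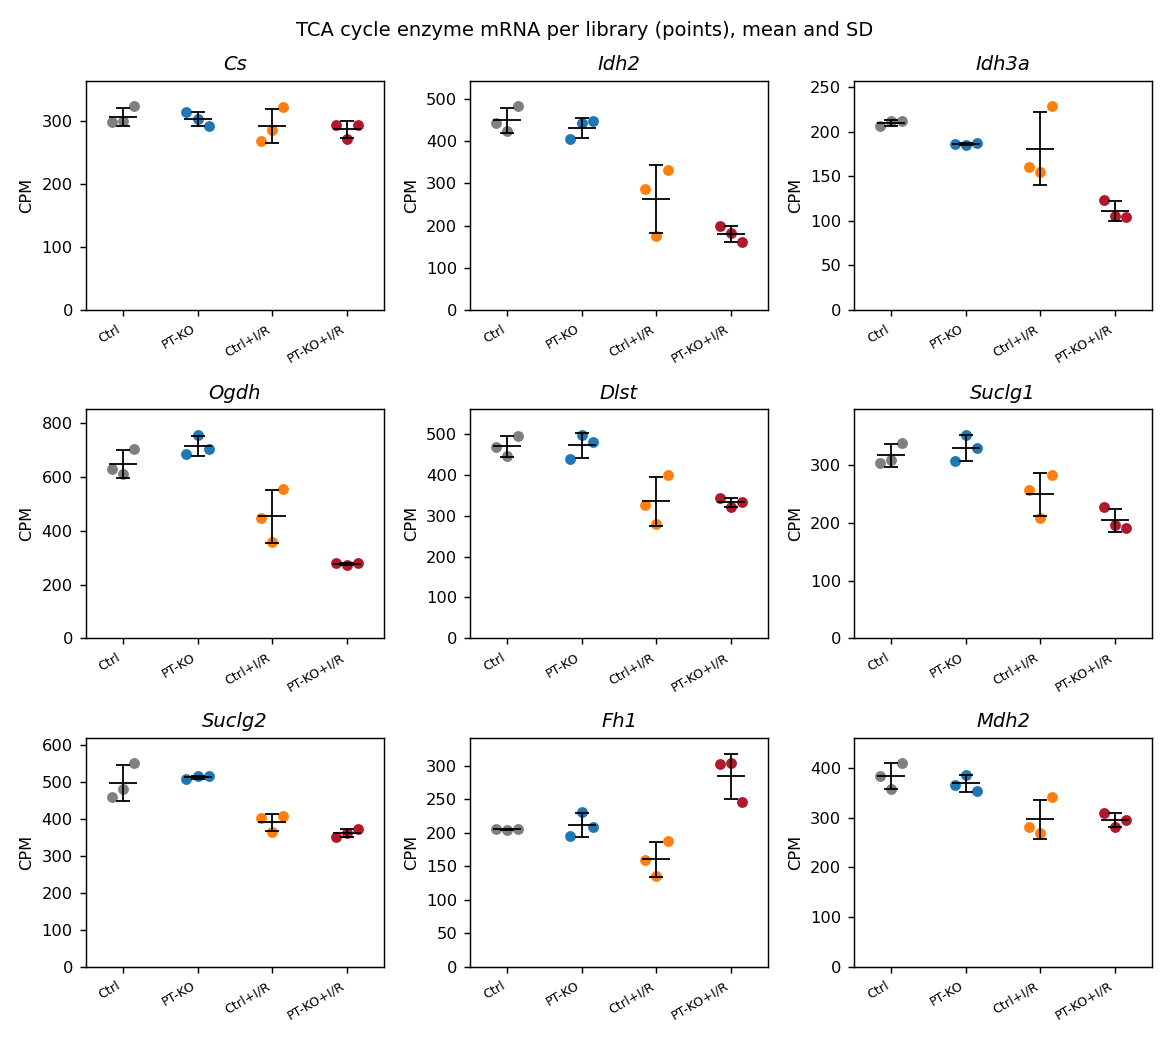
Each panel shows 1 gene, with the CPM of every library as a point and the mean with SD (n = 3) of each group in black, on axes that start at 0. Fh1 is highest in PT-KO+I/R, between 246 and 304 CPM, whereas Ogdh is lowest there, between 271 and 280 CPM, and Cs stays between 268 and 322 CPM in all 12 libraries.

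Fh1 and Ogdh are the members called in the interaction of knockout and I/R given below, and Dlst was the only member whose window held the ETS letters searched below, so the bases around their RefSeq start sites are shown (GRCm38.p6, 150 bases before the start and 8 after it, written along the gene's strand). Capitals mark the motif letters.
Fh1, chr1:175625628-175625785, minus strand: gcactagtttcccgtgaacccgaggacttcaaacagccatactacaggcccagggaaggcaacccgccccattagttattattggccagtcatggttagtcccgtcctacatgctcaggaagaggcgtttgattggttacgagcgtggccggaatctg
Ogdh, chr11:6292020-6292177, plus strand: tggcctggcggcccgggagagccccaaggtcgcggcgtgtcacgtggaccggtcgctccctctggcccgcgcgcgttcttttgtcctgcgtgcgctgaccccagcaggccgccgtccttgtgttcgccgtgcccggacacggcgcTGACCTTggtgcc
Dlst, chr12:85110683-85110840, plus strand: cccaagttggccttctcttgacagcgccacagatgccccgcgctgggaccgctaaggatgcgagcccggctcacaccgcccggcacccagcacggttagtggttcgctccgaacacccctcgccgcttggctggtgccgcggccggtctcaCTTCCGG

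Of the members, 8 had a promoter window of 300 bases in this table, and Idh3a had none. For 2 kinds of regulator of mitochondrial genes a motif was searched on both strands. AAGGTCA, the half-site of estrogen-related receptors and other nuclear receptors, lay in 1 of 6 windows of Ogdh, where it spans the start on the minus strand. No other member with a window held it. Over all 27025 genes with windows, 5.38% held it in at least 1, and of 7 further genes of the cycle with windows only Sdhd did. CCGGAAG, read by the ETS family that includes GABP, lay in Dlst just after the start, against 9.93% of all genes with windows. Of the 7 further genes of the cycle, 4 held it (Idh3b, Idh3g, Sdhb and Sdhd). The Fh1 stretch is the poorest in G and C of the 3 shown, at 53.8%, against 72.8% in Ogdh and 69% in Dlst. The Ogdh stretch is from the 1 window that held the motif. Over the 250 bases before the start, the 6 windows of Ogdh ran from 50% to 74%, on both sides of Fh1 at 52.8%. These are matches of letters and say nothing about binding.

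After I/R in control kidneys all 9 members had lower mean levels, and the members differed in how much. Idh2 measured 443, 424 and 482 CPM in Ctrl 1, 2 and 3, and 286, 175 and 331 CPM in Ctrl+I/R 1, 2 and 4. All 3 Ctrl+I/R libraries were below all 3 Ctrl libraries. The log2 fold change was -0.76 ± 0.23 (SE), with an adjusted p of 0.0586. Ogdh measured 629, 609 and 706 CPM in Ctrl, and 448, 360 and 555 CPM in Ctrl+I/R, again without overlap. Its log2 fold change was -0.51 ± 0.19 with an adjusted p of 0.0919.

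Dlst (-0.48 ± 0.16, SE), Mdh2 (-0.36 ± 0.14), Fh1 (-0.35 ± 0.14), Suclg1 (-0.34 ± 0.15) and Suclg2 (-0.34 ± 0.14) lay close together on the log2 scale, with adjusted p between 0.0735 and 0.138. Idh3a (-0.21 ± 0.17) and Cs (-0.066 ± 0.12) were nearest to 0, and their groups overlapped. The value of Cs was above 0, at 0.054, with library totals as the scale. Over the members the median was -0.35, against -0.011 over all genes tested.

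By edgeR's quasi-likelihood test with Benjamini-Hochberg adjustment over all genes, 0 of 9 members passed 0.05, while 19.4% of all genes were called. At an unadjusted p under 0.05 there were 6 members, against 5907 of 15567 genes, and DESeq2 called 5, where it called 26% of all genes. The groups did not overlap for 7 of 9 members, against 43.7% of all genes. Without Ctrl+I/R library 4, which had the highest proximal tubule marker sum of its group, 6 members passed, where 25% of all genes did. The share of all genes called was 2.39% when Ctrl 1 was left out and 2.56% for Ctrl 2. It was 5.28% when the first Ctrl+I/R library was left out and 10.2% for the second, so the background shares of this comparison depend on single libraries. With sex as a covariate in a fit to all 12 libraries, where Ctrl 3 is the only male control, 3 passed, where 12.5% of all genes did. The spread within Ctrl+I/R moved with the marker sum: 8 of the 9 members, all but Cs, were lowest in library 2, and all 9 were highest in library 4. In bulk RNA, fewer proximal tubule cells and less RNA of a gene per cell cannot be told apart. Leukocyte markers were called higher here in 6 of 6 genes (median log2 fold change 3.46) and injured tubule markers in 3 of 3 (7.97). Proximal tubule markers were called lower in 3 of 9 (-0.93), podocyte markers in 3 of 3 (-0.85), distal tubule markers in 2 of 4 (-1.81), and collecting duct and endothelium markers in 1 of 4 each. The part of cell make-up in these values was not tested.

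In the kidneys labelled PT-KO, I/R came with a split among the members. Of the 9, 7 fell, Fh1 rose, and Cs did not pass the test. Ogdh measured 686, 756 and 704 CPM in PT-KO 1, 2 and 4, and 279, 271 and 280 CPM in PT-KO+I/R 2, 3 and 4. The fall left 0.385 of the level without I/R (log2 fold change -1.38 ± 0.086, SE, adjusted p = 6.1e-07). Idh2 measured 405, 444 and 448 CPM in PT-KO, and 198, 182 and 160 CPM in PT-KO+I/R (-1.27 ± 0.10, adjusted p = 3.0e-06). For both genes every PT-KO+I/R library lay below every PT-KO library.

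Idh3a measured 187, 185 and 187 CPM in PT-KO, and 124, 105 and 104 CPM in PT-KO+I/R (-0.76 ± 0.09, SE, adjusted p = 4.9e-05). Suclg1 measured 308, 353 and 331 CPM in PT-KO, and 228, 196 and 191 CPM in PT-KO+I/R (-0.70 ± 0.098). Its partner Suclg2 fell less, by 0.51 ± 0.082 on the log2 scale, from 507, 515 and 515 CPM to 351, 361 and 372 CPM. Dlst also fell by 0.51 (SE 0.087), and Mdh2 fell by 0.33 (SE 0.085, adjusted p = 0.00618). Thus the 2 subunits of alpha-ketoglutarate dehydrogenase among the members fell by different estimates, Ogdh to 0.385 and Dlst to 0.702 of its level.

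Fh1 went the other way. It measured 196, 231 and 209 CPM in PT-KO, and 303, 304 and 246 CPM in PT-KO+I/R. Every injured library lay above the highest uninjured one. The log2 fold change was 0.42 ± 0.11 (SE), with an adjusted p of 0.00632. Cs was level, with 314, 303 and 292 CPM in PT-KO, and 294, 271 and 293 CPM in PT-KO+I/R. Its log2 fold change was -0.091 ± 0.084 with an adjusted p of 0.362, and the groups overlapped.

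Of the 9 members, 7 were called lower, where 32.7% of all genes were, and 1 was called higher, where 32.9% were. The members' median log2 fold change was -0.51, against 0.011 over all genes tested. Groups did not overlap for 8 of 9 members, against 70.8% of all genes. The counts of called members were the same under each alternative tried, including each library left out. The proximal tubule markers fell in 9 of 9 genes in this comparison, with log2 fold changes from -4.03 to -0.98 and a median of -2.58, and all were still detected. The sum of 3 markers of injured tubule (Havcr1, Lcn2 and Krt20) was 1.94 to 4.10 CPM in PT-KO and 4800 to 6312 CPM in PT-KO+I/R. The 6 leukocyte markers summed to 24.1 to 31.1 CPM and to 70.1 to 98.0 CPM, with 4 called higher and 2 lower, Ptprc (-1.16) and Lyz2 (-1.36). Markers of the distal tubule were called lower in 4 of 4 genes, from -5.05 to -0.68, those of the collecting duct were lower in 3 of 4, and those of endothelium were higher in 3 of 4. Podocyte markers were lower in 1 of 3 and inner medulla markers in 1 of 2. The part of these cell types in the members' change was not tested.

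**Figure D2:**
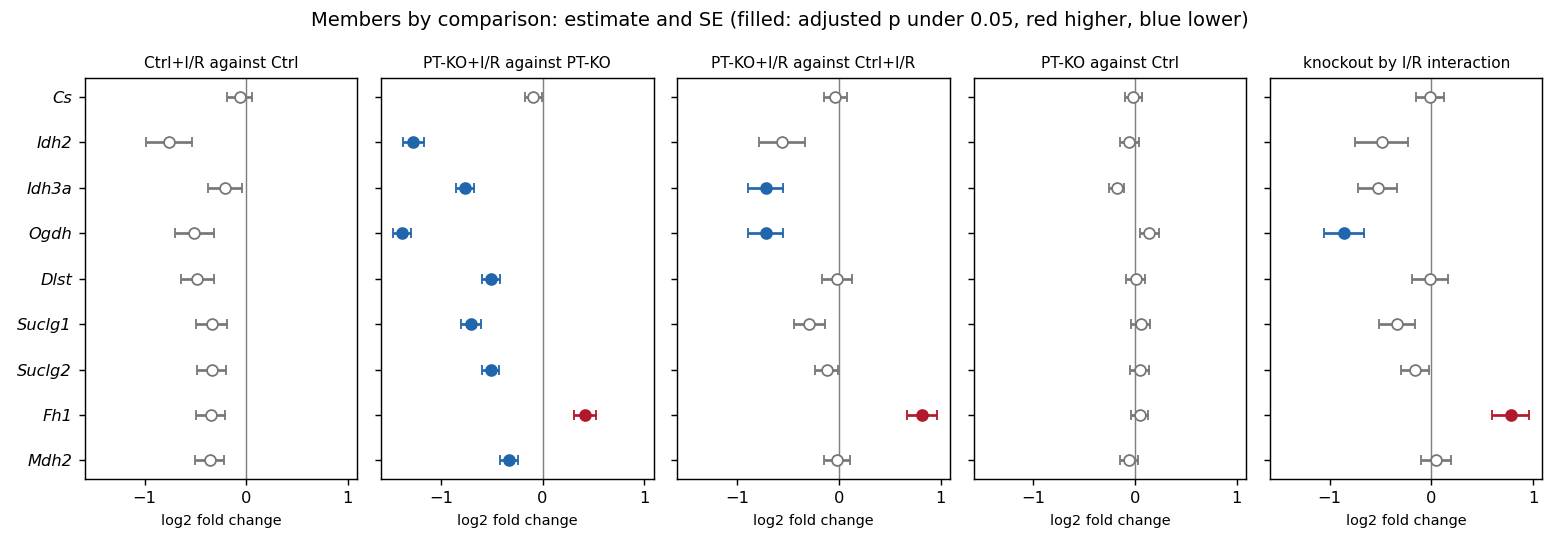
Each panel is 1 comparison, with log2 fold change on the horizontal axis (for the interaction, the difference of 2 log2 fold changes) and the estimate with its SE for each member. Filled points passed an adjusted p of 0.05, which Fh1 did to the right of 0 in 3 panels and Ogdh to the left of 0 in the same 3.

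Between injured kidneys of the labelled genotypes, PT-KO+I/R had more Fh1 and less Idh3a and Ogdh. Fh1 measured 159, 135 and 187 CPM in Ctrl+I/R 1, 2 and 4, against 303, 304 and 246 CPM in PT-KO+I/R, which is 1.76 times the level (log2 fold change 0.82 ± 0.15, SE, adjusted p = 0.00411). Idh3a measured 160, 155 and 229 CPM in Ctrl+I/R, against 124, 105 and 104 CPM (-0.72 ± 0.17, adjusted p = 0.0106). Ogdh was likewise lower by 0.72 (SE 0.17, adjusted p = 0.00955). For all 3 genes the groups did not overlap. Idh2 was at -0.56 ± 0.23 with an adjusted p of 0.0745, and Ctrl+I/R library 2, at 175 CPM, lay within the range of PT-KO+I/R. It was called by DESeq2 (adjusted p = 0.0367), with library totals (0.0216), with no low-count filter (0.0362), in 1 fit to all 12 libraries (0.0265), with the sex covariate (0.028) and without Ctrl+I/R library 2 (-0.80, adjusted p = 0.00192).

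Cs (-0.034), Dlst (-0.016) and Mdh2 (-0.016) were near 0 on the log2 scale, with SE of 0.11 to 0.15. Suclg1 was at -0.29 ± 0.15 and Suclg2 at -0.12 ± 0.11. In all, 2 of 9 members were called lower and 1 higher, where 24.4% of all genes were called lower and 22.5% higher, so these counts do not set the members apart from other genes. The share of members whose groups did not overlap, 3 of 9, was below the 58.7% of all genes. Idh3a missed the threshold without PT-KO+I/R library 4 (-0.67, adjusted p = 0.0517). Library totals as the scale moved the median of all genes by -0.21, and 6 members then passed, 1 higher and 5 lower, where 33.2% of all genes were called lower. Proximal tubule markers were lower in 6 of 9 genes here, with a median of -1.42, and injured tubule markers were higher in 3 of 3. Endothelium markers were higher in 3 of 4 and inner medulla markers lower in 2 of 2 (median -1.55). Of 6 leukocyte markers 3 were higher and 2 lower, Ptprc (-2.32) and Lyz2 (-3.80), and distal tubule markers were lower in 2 of 4. Collecting duct markers were lower in 1 of 4 and podocyte markers in 1 of 3. Their part in the result was not tested.

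Without I/R, the labelled knockout came with no called member. The estimates ran from -0.18 ± 0.074 (SE) for Idh3a to 0.14 ± 0.097 for Ogdh on the log2 scale, with a median of 0.0065. Idh3a measured 207, 212 and 213 CPM in Ctrl, and 187, 185 and 187 CPM in PT-KO. These groups did not overlap, and its unadjusted p by edgeR was 0.0443, but the adjusted p was 0.286. It was the only member without overlap and the only member with an unadjusted p under 0.05, and 21.0% of all genes had no overlap. By edgeR 0 of 15291 genes (0%) were called, 2573 had an unadjusted p under 0.05, and DESeq2 called 458 genes and 0 members. Without Ctrl library 3, the only male control, edgeR called 1930 genes (12.4%) and still 0 members. Exact two-sided permutation tests on single members, in any of these comparisons, could not go below p = 0.1, the value of every member whose groups did not overlap.

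The test of whether I/R changed a gene differently in the labelled genotypes, an interaction fitted to all 12 libraries, called Ogdh and Fh1 in opposite directions. The interaction of Ogdh was -0.86 ± 0.20 (SE) on the log2 scale, with an adjusted p of 0.00729. That of Fh1 was 0.78 ± 0.18, with an adjusted p of 0.00764. Idh3a was at -0.53 ± 0.19 (adjusted p = 0.0537), Idh2 at -0.49 ± 0.26 and Suclg1 at -0.34 ± 0.18. Suclg2 (-0.16), Dlst (-0.016), Cs (-0.012) and Mdh2 (0.047) had SE of 0.14 to 0.18. With 1 member called in each direction of 9, the background was 14.3% of all genes higher and 16.4% lower. Ogdh missed the threshold with sex as a covariate (-0.73, adjusted p = 0.0526). Idh3a passed by DESeq2 (adjusted p = 0.0372), with library totals (0.0333) and with a minimum of 10 counts in every library (0.041). Leaving out Ctrl+I/R library 2 gave 5 called members, where 33.2% of all genes were called. In the interaction proximal tubule markers were called lower in 6 of 9 genes (median -1.39), injured tubule markers higher in 3 of 3 (2.55) and endothelium markers higher in 3 of 4 (0.47). Of 6 leukocyte markers 1 was higher and 2 lower, of 4 collecting duct markers 1 was higher and 1 lower, and 1 of 2 inner medulla markers, 1 of 4 distal tubule markers (both lower) and 1 of 3 podocyte markers (higher) were called. Their part in the result was not tested.

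Ratios between members within a library need no scaling, and they were looked at after the values above were seen, so they are given without a test. Fh1 had 0.503 to 0.569 counts for each Mdh2 count in Ctrl, 0.534 to 0.597 in PT-KO and 0.503 to 0.567 in Ctrl+I/R. In PT-KO+I/R libraries 2, 3 and 4 the ratio was 0.983, 1.08 and 0.831. Against Ogdh the step was larger, from 0.285 to 0.376 over the 9 other libraries to 1.09, 1.12 and 0.877 in PT-KO+I/R. Of the summed length-scaled counts of the 9 members, Fh1 made up 7.77 ± 0.424% (SD, n = 3) for Ctrl, 7.95 ± 0.368% for PT-KO, 8.22 ± 0.0399% for Ctrl+I/R and 16.2 ± 1.51% for PT-KO+I/R. Over the same groups Idh2 made up 22.3 ± 0.307%, 21.3 ± 0.722%, 17.4 ± 2.97% and 13.5 ± 0.909%, and Ogdh made up 15.2 ± 0.295%, 16.7 ± 0.273%, 14.4 ± 0.727% and 9.85 ± 0.455%.

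**Figure D3:**
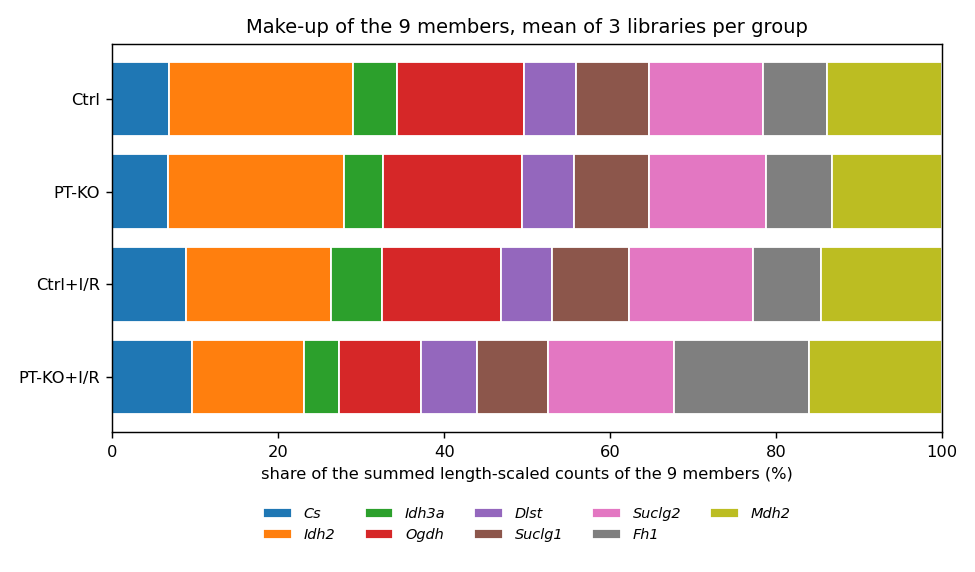
Bars show the mean share (3 libraries a group) of each member in the summed length-scaled counts of the 9 members, in percent. The share of Fh1 is 16.2% in PT-KO+I/R and 7.77 to 8.22% in the other groups, and the shares of Idh2 and Ogdh are smallest in PT-KO+I/R.

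Summed over the 9 members, the level was 3344 to 3722 CPM in Ctrl and 3407 to 3671 CPM in PT-KO. It was 2585, 2230 and 3053 CPM in Ctrl+I/R 1, 2 and 4, and 2429, 2292 and 2275 CPM in PT-KO+I/R 2, 3 and 4. The sum was thus alike in the lowest Ctrl+I/R library and in PT-KO+I/R, although Fh1 in that Ctrl+I/R library was at 135 CPM. Within Ctrl+I/R the members' sum and the proximal tubule marker sum were both lowest in library 2 and highest in library 4.

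**Figure D4:**
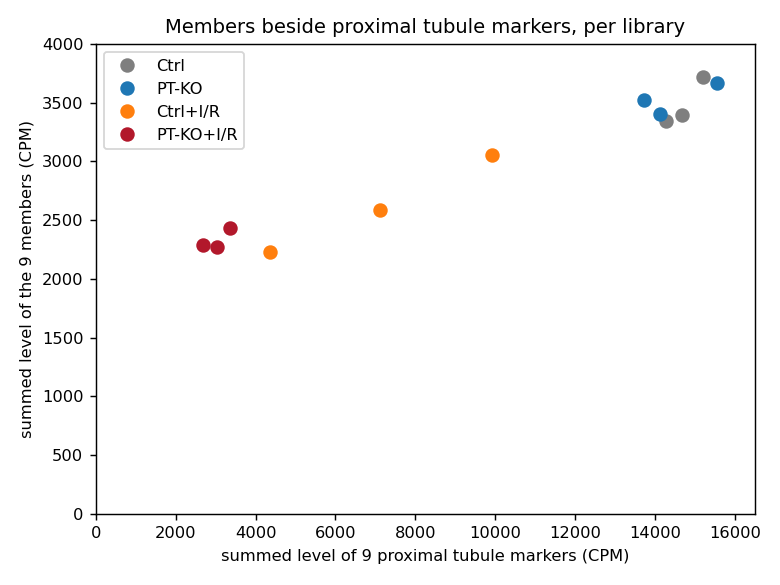
Each point is 1 library, with the summed CPM of 9 proximal tubule markers on the horizontal axis and the summed CPM of the 9 members on the vertical axis. Libraries without I/R sit at the upper right (members 3344 to 3722 CPM), PT-KO+I/R at the left (2275 to 2429 CPM), and the 3 Ctrl+I/R libraries lie between these on the horizontal axis (4350 to 9908 CPM), with library 2 lowest of all 12 on the vertical axis (2230 CPM).

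The members also differed in how like each other they were across the 12 libraries. Likeness was measured as the root mean square difference of log2 CPM values centred on each gene's mean. Dlst and Mdh2 were nearest to each other, at 0.096, and Idh2 and Ogdh were each other's nearest member at 0.15. Fh1 was farthest from the mean profile of the members, at 0.44, and its nearest member, Cs, was at 0.33. Among 16159 other genes, the 5 nearest to the mean profile were Sdhd (0.055), a subunit of succinate dehydrogenase, Slc25a5 (0.06), an ADP/ATP carrier of the inner membrane, Dlat (0.061), a subunit of pyruvate dehydrogenase, Tmem242 (0.065) and Uqcrc1 (0.066), a subunit of respiratory complex III. The profile includes the members' own values, and the likeness carries no test.

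A list of 8 further genes of the cycle was measured beside the members. They are Idh3b and Idh3g (partners of Idh3a), Dld (the lipoamide dehydrogenase that completes the complex of Ogdh and Dlst), Sucla2 (the ATP-specific partner of Suclg1) and the succinate dehydrogenase genes Sdha, Sdhb, Sdhc and Sdhd. From PT-KO to PT-KO+I/R 8 of 8 were called lower, where 32.7% of all genes were, from -1.05 ± 0.087 (SE) for Sdha to -0.46 ± 0.092 for Dld on the log2 scale. Sdha, the flavoprotein of the step that makes fumarate for Fh1, measured 1026, 1097 and 1057 CPM in PT-KO, and 531, 494 and 515 CPM in PT-KO+I/R. From Ctrl to Ctrl+I/R 3 of 8 were called lower, where 7.97% of all genes were: Sucla2 (-0.63), Sdha (-0.65) and Sdhb (-0.66). At an unadjusted p under 0.05 there were 7 of 8, DESeq2 called 7, and the groups did not overlap for 8 of 8, against 43.7% of all genes. Each of these 3 calls held in 1 of 6 fits that left out a library, the one without Ctrl+I/R library 4. With library totals Sdha (-0.54, adjusted p = 0.0558) and Sdhb (-0.55, adjusted p = 0.0637) missed the threshold, and with the sex covariate Sdhb did (-0.71, adjusted p = 0.0613). Between the injured groups edgeR called 0 of 8, where 46.9% of all genes were called, with 0 at an unadjusted p under 0.05 and 0 by DESeq2. The interaction also called 0 of 8, where 30.6% of all genes were called, with 0 at an unadjusted p under 0.05 and 0 by DESeq2, and its estimates ran from -0.39 to -0.036.

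Pyruvate enters the cycle through the mitochondrial pyruvate carrier (Mpc1 and Mpc2) and pyruvate dehydrogenase (Pdha1, Pdhb, Dlat and Pdhx). After I/R in PT-KO 5 of these 6 genes fell, where 32.7% of all genes did, from -1.15 ± 0.11 (SE) for Mpc2 to -0.36 ± 0.088 for Pdha1, and Pdhx did not pass the test. In control kidneys 2 of 6 fell, where 7.97% of all genes did, Mpc1 (-0.95) and Mpc2 (-0.81). The call of Mpc1 held in 6 of 6 fits that left out a library and that of Mpc2 in 2 of 6, those without Ctrl+I/R library 2 or 4. Between the injured groups 0 of 6 were called by edgeR, against 46.9% of all genes, with 0 at an unadjusted p under 0.05 and 0 by DESeq2.

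The kinases and phosphatases that switch pyruvate dehydrogenase off and on were all called after I/R in PT-KO, 2 higher and 5 lower, where 65.5% of all genes were called. Pdk4, a kinase that shuts the complex down when fatty acids are burned, measured 32.4, 19.9 and 24.3 CPM in PT-KO, and 1234, 1264 and 1564 CPM in PT-KO+I/R. In Ctrl it was at 78.2, 35.1 and 15.9 CPM, and in Ctrl+I/R at 75.3, 61.1 and 27.6 CPM. All 3 PT-KO+I/R libraries stood far above the 9 others. The log2 fold change from PT-KO was 5.72 ± 0.20 (SE, adjusted p = 3.8e-08), that from Ctrl+I/R was 4.62 ± 0.37 (adjusted p = 2.0e-04), and the interaction was 5.39 ± 0.70 (adjusted p = 2.8e-04). The other kinases went down from PT-KO to PT-KO+I/R, with Pdk2 at -2.19 ± 0.16, Pdk1 at -1.99 ± 0.14 and Pdk3 at -1.59 ± 0.097. The interaction of Pdk3 was -1.16 ± 0.20 (adjusted p = 0.00139). Between the injured groups Pdk1 differed by -1.12 ± 0.31 (adjusted p = 0.0205) with overlapping groups, and it was not called without Ctrl+I/R library 1 or 4 or PT-KO+I/R library 3 or 4. Of the phosphatase genes, Pdp1 rose by 1.20 ± 0.16, and Pdp2 (-1.85) and the regulatory subunit Pdpr (-1.04) fell. In control kidneys after I/R, where 11.4% of all genes rose and 7.97% fell, Pdp1 rose by 0.56 and Pdk2 (-1.09), Pdp2 (-1.16) and Pdpr (-0.66) fell. The call of Pdp1 held in 1 of 6 fits with a library left out, without Ctrl+I/R library 4, and was lost with the sex covariate (0.63, adjusted p = 0.094). That of Pdp2 was lost without Ctrl library 2 (adjusted p = 0.0679) or Ctrl+I/R library 1 (adjusted p = 0.062).

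**Figure D5:**
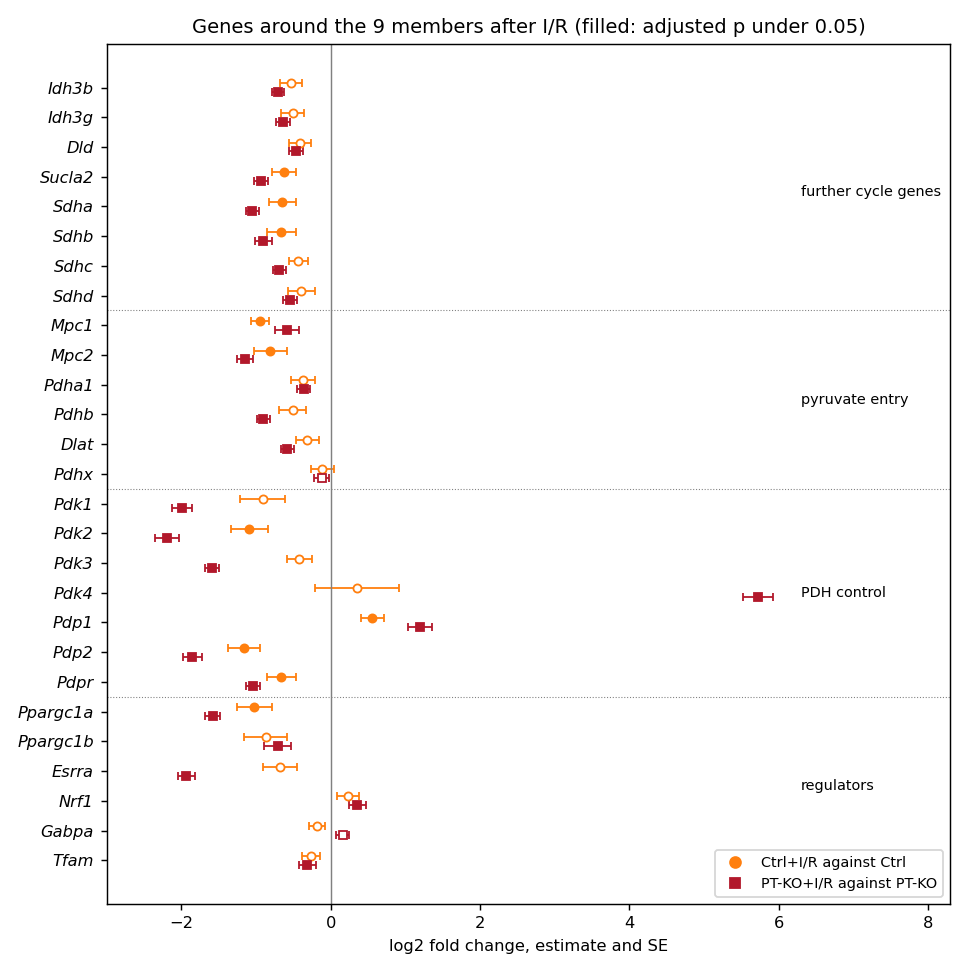
Log2 fold changes after I/R with their SE for genes around the 9 members, in control kidneys (circles) and in kidneys labelled PT-KO (squares), with filled symbols where the adjusted p was under 0.05. Pdk4 lies at 5.72 in PT-KO, and the 8 further genes of the cycle lie below 0 in both comparisons.

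Glud1 and Got2, which feed the cycle from amino acids, rose where most members fell. Glud1, which makes alpha-ketoglutarate from glutamate, measured 531, 552 and 500 CPM in PT-KO, and 1267, 875 and 975 CPM in PT-KO+I/R. The injured libraries were all above the uninjured ones (log2 fold change 0.97 ± 0.13, SE, adjusted p = 1.3e-04), and against Ctrl+I/R the difference was 1.10 ± 0.17 (adjusted p = 0.00167). Its interaction was 1.11 ± 0.21 (adjusted p = 0.00219). In the list of 8 genes that feed or drain the cycle, 7 could be tested, of which 2 rose (Glud1 and Got2) and 4 fell (Me2, Me3, Pck1 and Pcx) after I/R in PT-KO, shares to be set beside 32.9% and 32.7% of all genes, with Me3, a mitochondrial malic enzyme, lowest at -1.15 ± 0.12. The groups of Pck1 overlapped, at 3037 to 4409 CPM in PT-KO and 1629 to 3425 CPM in PT-KO+I/R. DESeq2 called 5 genes of this list in that comparison. Got2, the mitochondrial aspartate aminotransferase, went from 312 ± 11.4 CPM (SD, n = 3) in PT-KO to 410 ± 1.23 CPM in PT-KO+I/R. In control kidneys 1 of 7 was called, where 19.4% of all genes were, Me3 at -0.52. That call held in 1 of 6 fits with a library left out, without Ctrl+I/R library 4, and was lost with library totals (-0.41, adjusted p = 0.0859) and with the sex covariate (-0.41, adjusted p = 0.145). Its interaction was -0.61 ± 0.18 (adjusted p = 0.026), called in 5 of 12 fits with a library left out, those without Ctrl library 1, PT-KO library 1, Ctrl+I/R library 2 or PT-KO+I/R library 2 or 4. Me2, another mitochondrial malic enzyme, differed by -0.88 ± 0.17 between the injured groups (adjusted p = 0.00445).

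Cytosolic counterparts and close relatives of the members were compared as well. After I/R in PT-KO 5 of 7 fell, Dhtkd1, Ogdhl, Mdh1 and Me1 among them, and 1 rose, again against 32.7% and 32.9% of all genes. Dhtkd1, a relative of Ogdh that acts in lysine breakdown, changed by -2.60 ± 0.15 (SE) on the log2 scale, and Acly, which splits citrate in the cytosol, by 0.55 ± 0.098. The interaction of Dhtkd1 was -1.50 ± 0.38 (adjusted p = 0.0117), and with the sex covariate it was not called (-1.28, adjusted p = 0.0758). That of Me1, the cytosolic malic enzyme, was -1.05 ± 0.33 (adjusted p = 0.0313). It was called in 2 of 12 fits with a library left out, without Ctrl library 3 or Ctrl+I/R library 2, and not with the sex covariate (-0.42, adjusted p = 0.081). Acly differed by 0.55 ± 0.11 between the injured groups (adjusted p = 0.00523). Between the injured groups Ogdhl, another relative of Ogdh, differed by -1.81 ± 0.24, at only 5.06 ± 0.137 CPM (SD, n = 3) for Ctrl+I/R, against 1.45 ± 0.258 CPM for PT-KO+I/R. From Ctrl to Ctrl+I/R edgeR called 0 of 7, against 19.4% of all genes, with 4 at an unadjusted p under 0.05 and 3 by DESeq2. In the list for lipoate attachment and succinate dehydrogenase assembly, 1 of 7 rose (Lipt2, 0.65 ± 0.21) and 2 fell after I/R in PT-KO (Sdhaf1 at -0.59 and Sdhaf4 at -0.94), no more than the background. Lipt2 missed the threshold by DESeq2 (adjusted p = 0.0528) and with no low-count filter (adjusted p = 0.0541), and it held in 3 of 6 fits with a library left out, being lost without PT-KO library 1 or 4 or PT-KO+I/R library 4. Lias, which makes the lipoate that Dlst carries, was the only gene of this list called between the injured groups, at 0.39 ± 0.093 (adjusted p = 0.0108), and with library totals it was not called (0.18, adjusted p = 0.138).

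Of 6 regulators of mitochondrial genes, 4 fell (Esrra, Ppargc1a, Ppargc1b and Tfam) and 1 rose (Nrf1) after I/R in PT-KO, with the same background of 32.7% and 32.9%. Esrra, the estrogen-related receptor alpha, measured 113, 126 and 104 CPM in PT-KO, and 32.2, 32.2 and 25.9 CPM in PT-KO+I/R (-1.93 ± 0.11, SE, adjusted p = 3.8e-07). In Ctrl+I/R it was at 66.4, 53.1 and 103 CPM, above all PT-KO+I/R libraries (-1.31 ± 0.24, adjusted p = 0.00355), and its interaction was -1.24 ± 0.27 (adjusted p = 0.00549). Ppargc1a, a coactivator that works with Esrra, measured 114, 98.2 and 116 CPM in PT-KO, against 39.5, 33.6 and 37.3 CPM in PT-KO+I/R (-1.58 ± 0.10). It was called from Ctrl to Ctrl+I/R (-1.02 ± 0.24, adjusted p = 0.0284), as the only regulator by edgeR, where DESeq2 called 3 of 6. This edgeR call was lost with the sex covariate (-0.84, adjusted p = 0.0518) and without Ctrl library 1 or 2 or Ctrl+I/R library 1. Nrf1 rose by 0.36 ± 0.11 after I/R in PT-KO, and the call was lost without PT-KO library 1 (adjusted p = 0.0643) or 4 (adjusted p = 0.0547). Gabpa differed by 0.37 ± 0.12 between the injured groups. It was not called with library totals (0.16, adjusted p = 0.267), or without Ctrl+I/R library 4, PT-KO+I/R library 2 or PT-KO+I/R library 4.

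From Ctrl to PT-KO no gene of any of these lists was called, and 1, 2, 3, 3, 2 and 2 genes of the lists for pyruvate entry, pyruvate dehydrogenase control, counterparts, feeding and draining, cofactors and regulators had an unadjusted p under 0.05 by edgeR. DESeq2 called 1 of them, in the list of genes that feed or drain the cycle.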

How the data were processed

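RNA of whole kidney cortex was sequenced in 12 libraries, 3 in each of 4 groups. The authors deposited 1 table of raw read counts per gene, whole numbers without normalization. Per the submitters' processing notes, reads were aligned with HISAT2 2.0.4 to mm10; the counting program and its use of strand are not given in the sources used here. Of 55487 Ensembl identifiers, 55141 had a symbol in GENCODE M21. Library totals were 12165089 to 23123693 counts. The column of Ctrl library 3 matches no sample title and takes its group from its column name.

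Genes were filtered with filterByExpr, scaled by TMM and fitted with edgeR 4.0.16 in R 4.3.3 (quasi-likelihood F test), using 6 libraries for a comparison of 2 groups and all 12 for the interaction. Calls needed an adjusted p (Benjamini-Hochberg, over all genes tested) under 0.05. CPM values use TMM factors of all 12 libraries. SE was derived from the F statistic. Single members were also tested by exact two-sided permutation of log2 CPM (prior count 2). Nothing in the sources used here ties each library to a separate mouse beyond the sample labels, so p-values measure the spread between libraries.

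Alternatives were DESeq2 1.42.0, library totals, no filter, a minimum of 10 counts per library, a common fit of all 12 libraries, a replicate block, sex as a covariate and leaving out each library. Same-numbered libraries of different groups (12 pairs) were not alike, with a median residual correlation of -0.022, so samples were treated as unpaired. On simulated counts 200 genes were changed by known amounts, each larger than any member's estimate. The fit recovered 167 in Ctrl+I/R against Ctrl, 180 in PT-KO+I/R against PT-KO, 186 in PT-KO+I/R versus Ctrl+I/R, 185 in PT-KO against Ctrl and 136 in the interaction. In the same order it also called 18, 10, 15, 16 and 5 unchanged genes. Recovery of changes as small as those of the members was not simulated. Promoter windows came from RefSeq (GRCm38.p6). A motif of NRF1 was searched as well and is not reported here.

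The members and the gene lists were chosen with earlier results of these data known. Named were all members, the further genes of the cycle, and, of each other list, the called genes with the largest and smallest fold change in each comparison, with most of the genes that a count of 5 or fewer covers. Some values of Got2, Pdk1, Pdk2, Pdk3, Pdpr and Ppargc1a were given where this rule did not ask for it. Promoters were chosen after the values were seen. Some genes of the lists are not reported here.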

Additional observations from a re-analysis of the deposited data

Results flagged for a closer look

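Among the members, 2 responded differently to I/R in the labelled genotypes, by the interaction fitted to all 12 libraries with edgeR. Over all genes 30.6% were called in this test, 14.3% higher and 16.4% lower, so the count does not set the members apart. For Ogdh the interaction was -0.86 ± 0.20 (SE) on the log2 scale, with an adjusted p of 0.00729. It was called in each of 12 fits that left out 1 library, with values from -1.01 to -0.69. For Fh1 the interaction was 0.78 ± 0.18, with an adjusted p of 0.00764, called in each of the same 12 fits, with values from 0.66 to 0.90. With sex as a covariate Ogdh missed the threshold (-0.73, adjusted p = 0.0526). Proximal tubule markers were called lower in the interaction in 6 of 9 genes, with a list median of -1.39. Injured tubule markers were called higher in 3 of 3 (2.55), endothelium markers higher in 3 of 4 (0.47), leukocyte markers lower in 2 of 6 and higher in 1, and inner medulla markers lower in 1 of 2. Of 4 collecting duct markers 1 was higher and 1 lower, 1 of 4 distal tubule markers was lower and 1 of 3 podocyte markers was higher. The part of these in either value was not tested.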

How the results depend on the processing

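The calls of PT-KO+I/R against PT-KO, 8 of 9 members, and of PT-KO against Ctrl, 0 of 9 by edgeR (1 at an unadjusted p under 0.05, 0 by DESeq2), were the same in number under every alternative. In PT-KO+I/R against PT-KO 65.5% of all genes were called, and 39.6% to 66.4% under the alternatives. In PT-KO against Ctrl the share was 0%, and at most 12.4% under an alternative. The count of Ctrl+I/R against Ctrl was 0, where 19.4% of all genes were called. It became 5 with DESeq2 (26% of all genes), 5 in 1 fit to all 12 libraries (30.5%) and 3 with sex as a covariate (12.5%). It became 1 with no low-count filter (12.7%) and 1 with a replicate block (23.2%). With a library left out it lay between 0 and 6 (6 without Ctrl+I/R library 4, where 25% of all genes were called). The count of PT-KO+I/R versus Ctrl+I/R was 3, where 46.9% of all genes were called, and became 6 with library totals (46.2%). It became 4, with Idh2 added, by DESeq2 (47%), with no low-count filter (26.9%), in 1 fit to all 12 libraries (51.2%) and with the sex covariate (52.4%). It became 0 with the replicate block (11%), where Fh1 was at 0.78 (adjusted p = 0.116), Ogdh at -0.68 (adjusted p = 0.155) and Idh3a at -0.73 (adjusted p = 0.128). With a library left out it lay between 2 and 5 (5 without Ctrl+I/R library 2, where 48% of all genes were called). The interaction count was 2, where 30.6% of all genes were called. It became 1 with the replicate block (Fh1 0.72, adjusted p = 0.0696), where 19.9% of all genes were called, and 1 with the sex covariate (20%). It became 3, with Idh3a added, by DESeq2 (33.3%), with library totals (28.4%) and with a minimum of 10 counts in every library (33.4%). With a library left out it lay between 2 and 5 (5 without Ctrl+I/R library 2, where 33.2% of all genes were called). The causes were not tested. Some calls of list genes named in the report were not made with the block. They are given with the log2 fold change and adjusted p under it. After I/R in control kidneys they included Sucla2 (-0.68, 0.0517) and Pdp1 (0.62, 0.0637), and after I/R in PT-KO Lipt2 (0.65, 0.133) and Nrf1 (0.33, 0.118). Between injured groups they included Glud1 (1.16, 0.058), Esrra (-1.36, 0.0505), Ogdhl (-1.72, 0.0571), Lias (0.43, 0.198), Gabpa (0.52, 0.141), Acly (0.57, 0.155), Me2 (-0.96, 0.0892) and Pdk1 (-0.77, 0.235). In the interaction they included Dhtkd1 (-1.49, 0.0756) and Me3 (-0.43, 0.183). Over all genes, PT-KO against Ctrl had 1378 calls with the block and 1930 without Ctrl library 3, against 0. Replicate numbers are shared by labels only, and correlations of same-numbered libraries ran from -0.188 to 0.184. Library totals moved the median of all genes by 0.12 for Ctrl+I/R against Ctrl, by -0.21 for PT-KO+I/R versus Ctrl+I/R, by -0.12 for PT-KO against Ctrl and by -0.087 for the interaction. They changed the split of all called genes from 1778 higher and 1241 lower to 2346 and 766, from 3444 and 3725 to 1978 and 5080, and, for the interaction, from 2305 and 2648 to 1591 and 2997.

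Signs turned in members near 0. With library totals, Cs was at 0.054 in Ctrl+I/R against Ctrl, and in PT-KO against Ctrl Dlst was at -0.12, Suclg1 at -0.066, Suclg2 at -0.076 and Fh1 at -0.083. The interaction of Mdh2 was then at -0.04. With the replicate block, Dlst was at 0.018 in PT-KO+I/R versus Ctrl+I/R and at 0.0014 in the interaction, and in PT-KO against Ctrl Cs was at 0.044 and Mdh2 at 0.018. With the sex covariate, in PT-KO against Ctrl Dlst was at -0.068, Suclg1 at -0.039 and Suclg2 at -0.10, and the interaction was 0.062 for Cs and 0.06 for Dlst. With a library left out, PT-KO+I/R versus Ctrl+I/R ran from -0.1 to 0.039 for Cs, from -0.14 to 0.13 for Dlst and from -0.094 to 0.093 for Mdh2. PT-KO against Ctrl ran from -0.041 to 0.022 for Cs, from -0.028 to 0.06 for Dlst, from -0.014 to 0.12 for Suclg2 and from -0.017 to 0.10 for Fh1. The interaction ran from -0.072 to 0.058 for Cs, from -0.14 to 0.12 for Dlst and from -0.032 to 0.15 for Mdh2. None of these values passed the test.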
